A study of Mus musculus with 12 samples.

Results

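The genes described here encode 7 proteins that epithelia and white blood cells secrete, or shed, against microbes and tissue damage, and they were chosen by symbol: Lcn2, Slpi, Ltf, Pigr, Clu, Saa3 and Wfdc2. All 7 are among the 23337 gene symbols counted in peeled urothelium, the epithelial lining of the bladder stripped from the tissue beneath it. RNA came from Stag2-WT and Stag2-KO mice that were fed for a week on chow containing TMX (taken to be tamoxifen) and were killed 1 week or 1 month after the diet began. WT and KO animals were both fed the diet. There were 3 libraries in each of 4 groups, and each title carries its own number, read here as a separate mouse. Stag2 encodes a subunit of cohesin. The promoter or cell type that drives the deletion, and the age and sex of the mice, are not given in the sources used here.

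The urinary tract guards its lining against bacteria in part through such secretions. Some are made by resting epithelium, and others are induced when Toll-like receptors or cytokines such as interleukin 17 and interleukin 1 activate NF-kB, C/EBP and STAT3. Lipocalin 2 (Lcn2) takes iron-carrying siderophores from bacteria and lactoferrin (Ltf) binds iron. Slpi inhibits serine proteases of neutrophils, and Wfdc2 shares its WAP-type fold. Pigr carries polymeric immunoglobulin A across the epithelium and is cut to release secretory component. Clu encodes clusterin, a secreted chaperone, and Saa3 an acute phase apolipoprotein.

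In GENCODE M21 on GRCm38 all 7 are protein-coding genes. Wfdc2 lies on chromosome 2 from 164562413 to 164568510 and Slpi on the same chromosome from 164354070 to 164389095. Lcn2 lies on chromosome 2 from 32384633 to 32388252 and Pigr on chromosome 1 from 130826684 to 130852249. Clu spans 65968483 to 65981547 on chromosome 14, Ltf 111019271 to 111042767 on chromosome 9, and Saa3 46711998 to 46715700 on chromosome 7. Slpi holds the microRNA gene Mir7678 on its own strand, and no other annotated gene overlaps a member.

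Promoter sequences are shown for 3 members whose transcripts were at very different levels: Wfdc2, the most abundant, Pigr, the member that rose in KO at 1 month, and Lcn2, which was at or near 0 counts. RefSeq (GRCm38.p6) gave a promoter for 6 of the 7 members, the exception being Clu. Each sequence runs 5′ to 3′ on the gene's own strand, from 250 bases before the annotated start through the next 50, and capitals mark matches to the patterns named in the next paragraph.
Wfdc2 (chr2:164562465-164562764, + strand): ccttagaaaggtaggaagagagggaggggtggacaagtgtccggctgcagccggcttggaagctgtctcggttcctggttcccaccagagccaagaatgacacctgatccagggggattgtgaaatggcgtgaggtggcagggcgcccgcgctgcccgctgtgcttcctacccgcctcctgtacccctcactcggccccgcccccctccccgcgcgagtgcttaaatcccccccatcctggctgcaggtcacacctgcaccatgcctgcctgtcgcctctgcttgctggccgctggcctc
Pigr (chr1:130826434-130826733, + strand): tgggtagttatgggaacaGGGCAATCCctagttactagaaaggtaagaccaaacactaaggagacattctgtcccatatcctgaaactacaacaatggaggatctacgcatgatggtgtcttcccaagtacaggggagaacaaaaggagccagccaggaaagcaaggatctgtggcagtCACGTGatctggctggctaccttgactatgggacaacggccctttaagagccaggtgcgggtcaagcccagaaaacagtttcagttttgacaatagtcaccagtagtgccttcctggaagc
Lcn2 (chr2:32387690-32387989, - strand): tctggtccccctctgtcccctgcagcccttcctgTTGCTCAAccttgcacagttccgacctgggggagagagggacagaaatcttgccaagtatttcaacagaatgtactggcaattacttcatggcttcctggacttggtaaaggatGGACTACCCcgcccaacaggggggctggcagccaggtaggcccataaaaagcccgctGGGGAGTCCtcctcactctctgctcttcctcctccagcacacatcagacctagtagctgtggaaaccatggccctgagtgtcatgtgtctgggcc

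Both strands were searched for patterns of NF-kB (GGGNNNTCC, and a longer form), AP-1 (TGANTCA), C/EBP (TTNNGCAA), the E-box (CACGTG), interferon regulatory factors, the heat shock element (GAANNTTC), the TATA box (TATAAA) and the CCAAT box (CCAAT), where N is any base. The Lcn2 promoter held 2 matches to GGGNNNTCC, a pattern found in 17.8% of the 32851 RefSeq promoters of the same length, and 1 match to the C/EBP pattern, found in 10.8%. Promoters of the other members in the lowest range of counts also held the C/EBP pattern, as TTGAGCAA in Slpi, TTATGCAA in Saa3 and TTGGGCAA in Ltf, where it overlapped a CCAAT match. The Pigr promoter held 1 GGGNNNTCC match and 1 E-box, the latter found in 7.15% of promoters. No pattern matched in the Wfdc2 window, which had 65.3% G and C and 16 CpG dinucleotides, against medians of 52.7% and 7 over all promoters. The matches describe letters only, and binding was not measured.

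Levels are given as CPM, the count of a gene scaled to a common library total after TMM adjustment over the 12 libraries. The libraries were made from the 3′ ends of transcripts, so that a transcript gives a tag whatever its length, and levels of different genes are compared on this scale. Totals ranged from 5580961 to 9497088 counts, and 3 counts, the most that a count of 0 allows, correspond to between 0.305 and 0.632 CPM. Stag2 had 106 to 151 CPM in WT and 59.6 to 72.3 in KO at 1 week, and 45.2 to 64.7 in WT against 19.3 to 39.4 in KO at 1 month, so the groups did not overlap at either time. Its log2 fold change was -0.89 (SE 0.27) with an adjusted p of 0.198 at 1 week and -0.88 (SE 0.22) with an adjusted p of 0.0507 at 1 month in edgeR's quasi-likelihood test. Uroplakin Upk1a averaged 5067 CPM over the libraries and basal keratin Krt5 503, while Col1a1, a collagen gene of fibroblasts, averaged 3336. Xist, expressed from an inactive X chromosome, exceeded 100 counts in all 3 KO libraries of 1 week and in KO replicate 3 of 1 month and stayed at or under 28 counts elsewhere, so genotype and sex cannot be told apart at 1 week. KO replicate 3 of 1 week stood apart from the others, with Spearman correlations of 0.676 to 0.842 with the other 11 libraries. All 6 libraries of 1 week are labelled batch 1, those of 1 month batch 2 (replicates 1 and 2) or batch 3 (replicate 3), so time and batch cannot be told apart. Batch 3 is a single pair of libraries, WT and KO replicate 3, and genotype and sex cannot be told apart within it. In such bulk samples fewer cells of a type and less RNA per cell cannot be told apart either.

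The levels of the 7 genes in the urothelium spanned more than 4 orders of magnitude on the CPM scale. Wfdc2 averaged 2397 CPM over the 12 libraries, Clu 353, Pigr 11.9 and Slpi 1.51. Saa3 averaged 0.386 CPM, Lcn2 0.202 and Ltf 0.0658. Wfdc2 was above Clu, and Clu above Pigr, in each of the 12 libraries. Among Saa3, Lcn2 and Ltf the ranges overlapped, so no order can be read from them. Wfdc2 ranked between 28 and 122 by count among all genes of a library, and Clu between 178 and 1345. Pigr exceeded 3 counts in all 12 libraries, Slpi in 8, and Lcn2 and Saa3 in 2 each. Ltf never exceeded 2 counts.

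**Figure D1:**
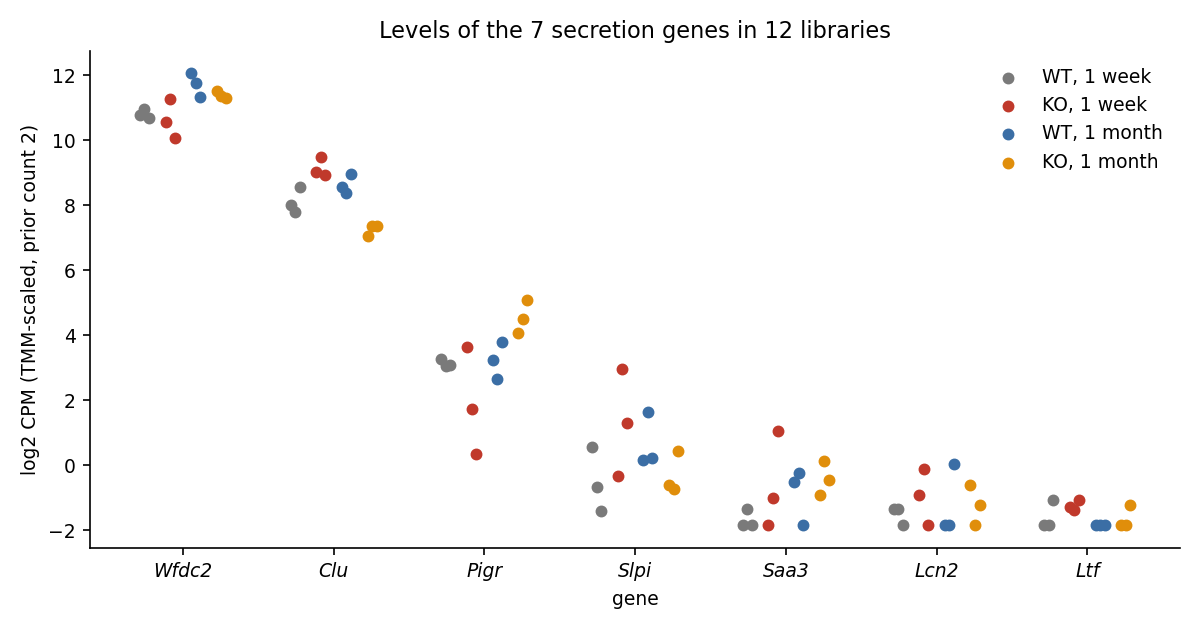
Log2 CPM (TMM-scaled, prior count 2) of the 7 genes in each of 12 libraries, coloured by group, with 1 point for each library. Wfdc2 and Clu lie above the other genes in all 12 libraries, Pigr lies below Slpi in KO replicates 2 and 3 of 1 week and below Saa3 in the latter, and the lowest points of Saa3, Lcn2 and Ltf are libraries with 0 counts.

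Wfdc2 was among the most abundant transcripts of the tissue in every library. At 1 week it had 1737, 1975 and 1637 CPM in WT and 1515, 2439 and 1074 CPM in KO. The highest and the lowest library were both KO, and the groups overlapped. Its log2 fold change was -0.07 (SE 0.36), with an edgeR adjusted p of 0.940. At 1 month it had 4257, 3455 and 2574 CPM in WT and 2946, 2641 and 2520 CPM in KO. The batch 3 libraries had near equal levels, and WT of batch 2 was higher than KO of batch 2. The log2 difference was -0.31 ± 0.25 (SE; edgeR, adjusted p 0.499), so no difference passed at either time. Within batches the log2 difference was -0.46 in batch 2 and -0.03 in batch 3.

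Clusterin transcripts were 2.56-fold lower in KO than in WT at 1 month, and this was the member with the smallest p. Clu had 375, 333 and 495 CPM in WT and 131, 165 and 164 CPM in KO at that time. Each KO library lay below every WT library, and the KO libraries were close together, with a mean of 153.6 ± 19.3 (SD, n = 3) against 401 ± 84.1 in WT. The log2 difference was -1.36 ± 0.21 (SE; edgeR, adjusted p 0.00991). The difference was -1.26 within batch 2, where Xist had at most 28 counts in a library, and -1.59 within batch 3.

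At 1 week Clu was placed the other way round. It had 259, 221 and 377 CPM in WT and 514, 712 and 485 CPM in KO. The groups again did not overlap, but here each KO library was the higher, with means of 286 ± 81.6 in WT and 571 ± 123 in KO (SD, n = 3). The log2 fold change of 1.02 (SE 0.32) did not pass in edgeR (adjusted p 0.212). It passed narrowly in DESeq2 (adjusted p 0.0483). The genotypes did not overlap for 26.6% of all genes tested at 1 week (13.3% with KO higher, 13.4% with KO lower) and for 13.1% at 1 month (6.42% higher, 6.71% lower).

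**Figure D2:**
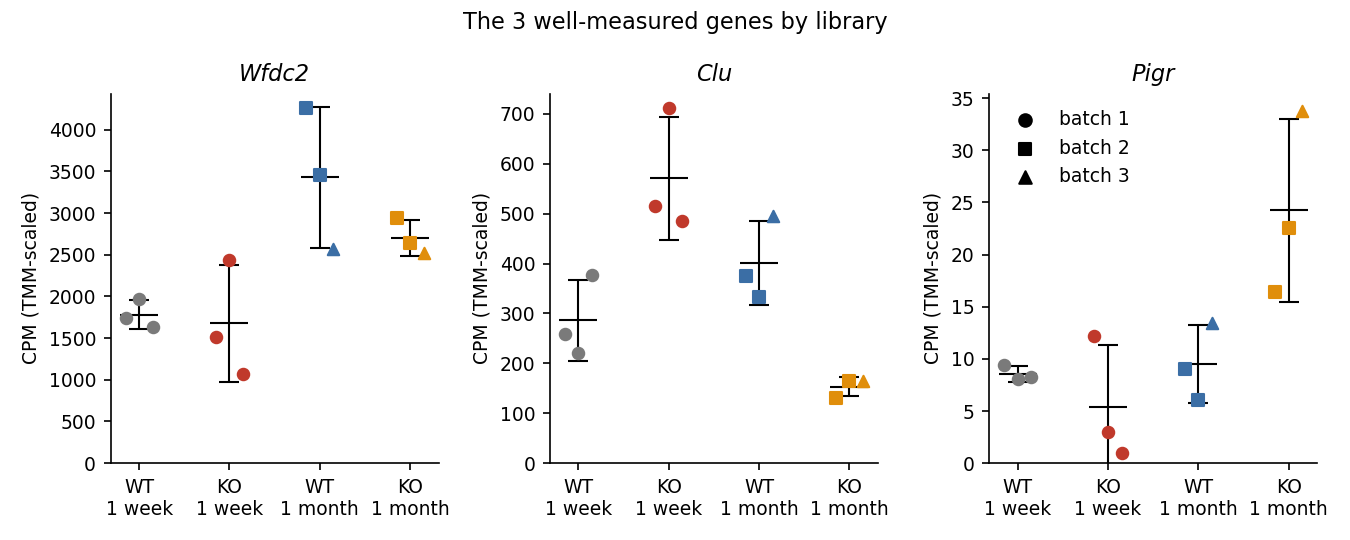
CPM (TMM-scaled) of Wfdc2, Clu and Pigr in each library by group, with marker shape for the labelled batch and black lines for the mean ± SD of 3 libraries (the lower whisker of Pigr in KO at 1 week runs under 0 and is clipped). Clu in KO lies above WT at 1 week and below WT at 1 month, and Pigr in KO lies above WT at 1 month.

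The transcript of the immunoglobulin receptor Pigr was 2.57-fold higher in KO than in WT at 1 month. It had 9.06, 6.02 and 13.4 CPM in WT, from 43, 32 and 90 counts, and 16.4, 22.6 and 33.7 CPM in KO, from 128, 137 and 222 counts. No KO library fell below the highest WT library, and in both genotypes the batch 3 library was the highest. The log2 difference was 1.36 ± 0.27 (SE; edgeR, adjusted p 0.0278), with differences of 1.35 within batch 2 and 1.31 within batch 3. The latter rests on a single pair of libraries in which genotype and sex cannot be told apart.

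At 1 week Pigr was even among the WT libraries and uneven among the KO libraries. WT libraries had 9.40, 8.03 and 8.23 CPM, and KO libraries 12.2, 3.02 and 0.992 CPM. KO held both the highest and the lowest library, the latter being the one that stood apart. The log2 difference was -0.61 ± 0.78 (SE; edgeR, adjusted p 0.721) and moved to -0.21 without KO replicate 3 and to -2.04 without KO replicate 1, neither past the threshold. Of 8 plasma cell and B cell markers 3 are listed (Cd79a, Cd79b and Ms4a1), and their highest summed level in any library was 1.504 CPM. Jchain, Mzb1 and the immunoglobulin genes are not listed, so the cells that make the cargo of this receptor were not measured.

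Of the 3 members that passed the filter on low counts at 1 month, 2 were called (Clu lower, Pigr higher), where 2.22% of the 12139 genes tested were called, 0.997% as higher and 1.22% as lower. Of the 4 that passed at 1 week, Slpi included, 0 were called and 2 had an unadjusted p under 0.05 (Clu and Slpi), with 0.0627% of 12754 genes called by edgeR, 0.0157% as higher and 0.047% as lower. The 8 genes that edgeR called at 1 week included all 5 sex-linked genes checked, Xist as higher and Ddx3y, Uty, Eif2s3y and Kdm5d as lower. DESeq2 called 1 member at 1 week, and 957 of all genes. Both calls at 1 month were lost without the batch covariate, with an edgeR adjusted p of 0.242 for Clu and 0.484 for Pigr, and in the fit of all 12 libraries, with 0.205 and 0.550. The Clu call was also lost without KO replicate 1 (adjusted p 0.0562), and the Pigr call without WT replicate 2 (0.149) or KO replicate 2 (0.0985).

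Whether the KO effect differed between times was tested as an interaction over the 12 libraries. For Clu the effect was lower at 1 month by 2.37 on the log2 scale, which is the value -2.37 (SE 0.39), with an unadjusted p of 6.22e-05, rank 7 of 13122 genes, and an edgeR adjusted p of 0.0879. It passed without KO replicate 1, 2 or 3 of 1 week, with adjusted p of 0.0264, 0.0455 and 0.0180, without a filter on low counts (0.0162) and in DESeq2 (2.56e-06), and failed in the other 9 fits that left out a library. For Pigr the difference was 1.99 (SE 0.87, adjusted p 0.233), and it passed without KO replicate 1 of 1 week, at 3.37 with an adjusted p of 0.0266. For Slpi it was -4.02 (SE 1.51, adjusted p 0.190) and for Wfdc2 -0.23 (SE 0.45, adjusted p 0.790). In all, 0 of 4 members and 0% of genes were called by edgeR, while 3 of the members and 19.9% of genes (2611) had an unadjusted p under 0.05, and DESeq2 called 1 member and 917 genes.

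**Figure D3:**
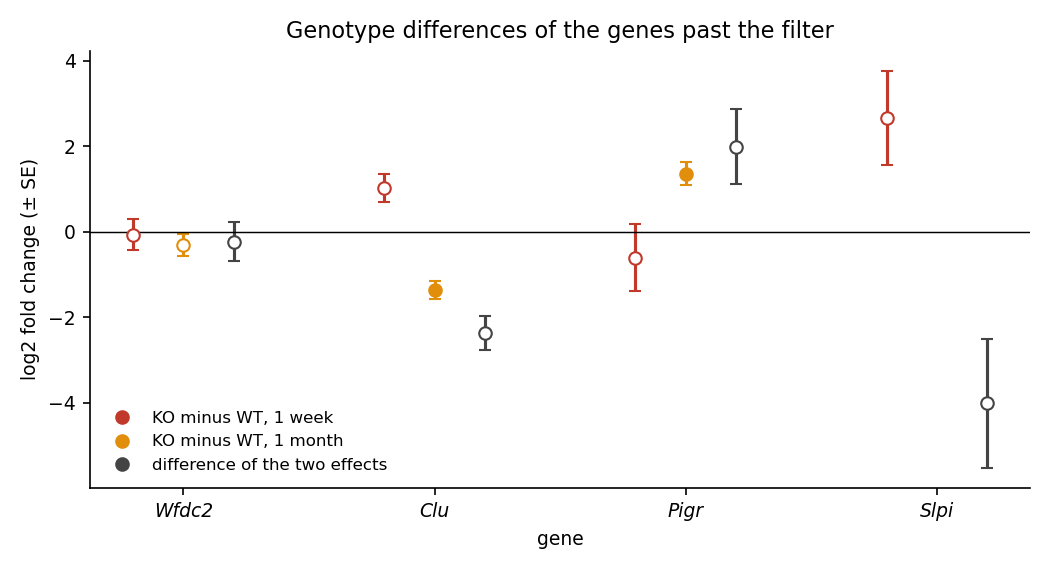
Log2 fold changes with SE from edgeR for the 4 genes past the filter, as KO minus WT at 1 week, KO minus WT at 1 month, and the difference between these effects. Filled points passed an adjusted p of 0.05, which Clu and Pigr did at 1 month, and Slpi has no point at 1 month because it did not pass the filter there.

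The ratio of Wfdc2 to Clu within a library does not depend on how libraries are scaled. At 1 week it was 6.70, 8.95 and 4.34 in WT libraries against 2.94, 3.43 and 2.21 in KO. At 1 month it was 11.4, 10.4 and 5.20 in WT and 22.4, 16.0 and 15.3 in KO. The genotypes did not overlap at either time, with KO lower at 1 week and higher at 1 month. Clu alone also did not overlap and Wfdc2 alone did, so this ratio is not a result separate from that for Clu. The ratio of Clu to Pigr was 41.4, 55.4 and 36.9 in WT and 8.01, 7.31 and 4.87 in KO libraries of 1 month. In the KO libraries of 1 week it was 42.2, 236 and 490, against 27.6, 27.5 and 45.8 in WT.

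Slpi, the protease inhibitor, was low in most libraries and highest in a single KO library of 1 week. At 1 week it had 10, 3 and 1 counts in WT libraries against 4, 69 and 11 in KO, or 1.19, 0.344 and 0.102 CPM against 0.513, 7.44 and 2.18 CPM. The groups overlapped, and KO replicate 2 stood above all others. The log2 difference of 2.66 ± 1.11 (SE; edgeR, adjusted p 0.314) fell to 1.24 without that library. At 1 month the counts were 4, 15 and 6 in WT libraries against 3, 2 and 7 in KO, too few to pass the filter.

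The inducible members Lcn2, Saa3 and Ltf did not pass the filter at either time. Lcn2 at 1 week had 1, 1 and 0 counts in WT libraries against 2, 6 and 0 in KO, while 1 month gave 0, 0 and 5 in WT libraries against 3, 0 and 1 in KO. No group was set apart, and 5 of the 12 libraries had 0. Saa3 at 1 week had 0, 1 and 0 counts in WT libraries against 0, 2 and 9 in KO, while 1 month gave 2, 3 and 0 in WT libraries against 2, 5 and 3 in KO. Its highest count was in the library that stood apart. Ltf had 6 counts over all libraries, and its 3 WT libraries of 1 month had 0. Differences between genotypes were not detectable for these genes at this depth: without the filter their edgeR adjusted p lay between 0.432 and 0.986. A count near 0 in a 3′ library does not show that a transcript is absent.

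Neutrophils store lactoferrin and lipocalin 2 in their granules. Of 15 neutrophil markers, the members Ltf and Lcn2 included, 14 are listed, and Elane and Ngp had 0 counts in all 12 libraries. Camp had 1 count over all libraries, S100a8 averaged 1.20 CPM and Mpo, the granule peroxidase, 0.880 CPM. Mpo, Elane, Ngp, Camp and S100a8 are named here after their values were seen. Mpo had 1 to 2 counts in WT and 4 to 16 in KO at 1 week, and 5 to 11 in WT against 0 to 4 in KO at 1 month, so its genotypes did not overlap and were placed as for Clu. Mpo did not pass the filter at either time, and its part in the result for Clu was not tested. At 1 week the summed level of the list was 33.1 to 42.3 CPM in WT and 24.6 to 37.9 in KO. At 1 month it was 28.7 to 70.7 in WT and 40.0 to 67.4 in KO. Its most abundant genes were Cxcr2, a chemokine receptor (21.8 CPM on average), Csf3r, the receptor of a granulocyte growth factor (7.73), and Mmp9, a gelatinase (7.72). Cxcr2 was placed opposite to Clu at 1 week, with 18.2 to 30.3 CPM in WT and 7.14 to 15.0 in KO. Its log2 difference was -1.14 (SE 0.39, edgeR adjusted p 0.236) at 1 week. At 1 month it was 0.80 (SE 0.37, edgeR adjusted p 0.231), with overlap.

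Other secreted defence and acute phase genes were followed as a list of 34, of which 31 are in the tables and 15 passed the filter at each time. At 1 month 2 of the 15 were called, both lower in KO, with a median log2 fold change of -0.28 against -0.01 over all genes, and 1.22% of all genes were called lower. Defb1, the constitutive epithelial beta-defensin, had 79.0, 32.7 and 21.3 CPM in WT and 8.97, 8.07 and 5.01 CPM in KO. The ranges were far apart although WT itself varied, with a log2 difference of -2.50 ± 0.33 (SE; edgeR, adjusted p 0.00344). The lysozyme gene Lyz1 had 80.7, 73.5 and 29.1 CPM in WT and 19.1, 16.5 and 8.05 CPM in KO, a log2 difference of -2.02 ± 0.22 (SE; edgeR, adjusted p 0.00113), and its reads may be split with its near copy Lyz2. Defb1 and Lyz1 were lost as calls without the batch covariate (adjusted p 0.221 and 0.297) and in the fit of all 12 libraries (0.0851 and 0.0715), and were kept when any 1 library was left out.

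At 1 week 0 of the 15 were called and the median was 0.70, against 0.02 over all genes. Defb1 was again lower in each KO library, with 15.2, 17.7 and 12.7 CPM in WT and 3.46, 3.88 and 6.15 CPM in KO. Its log2 difference was -1.74 ± 0.39 (SE; edgeR, adjusted p 0.122), and without KO replicate 3, the library that stood apart, it was -2.06 and passed (adjusted p 0.0278). Lyz1 had 8.83 to 14.6 CPM in WT and 7.87 to 12.1 in KO, and the groups overlapped. The most abundant gene of the list was Rnase4, a secreted ribonuclease, with 231 to 329 CPM in WT and 407 to 541 CPM in KO at 1 week (adjusted p 0.252). Saa1 and Saa2, of the same gene family as Saa3, and the trefoil gene Tff3 had 0 counts in all libraries.

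**Figure D4:**
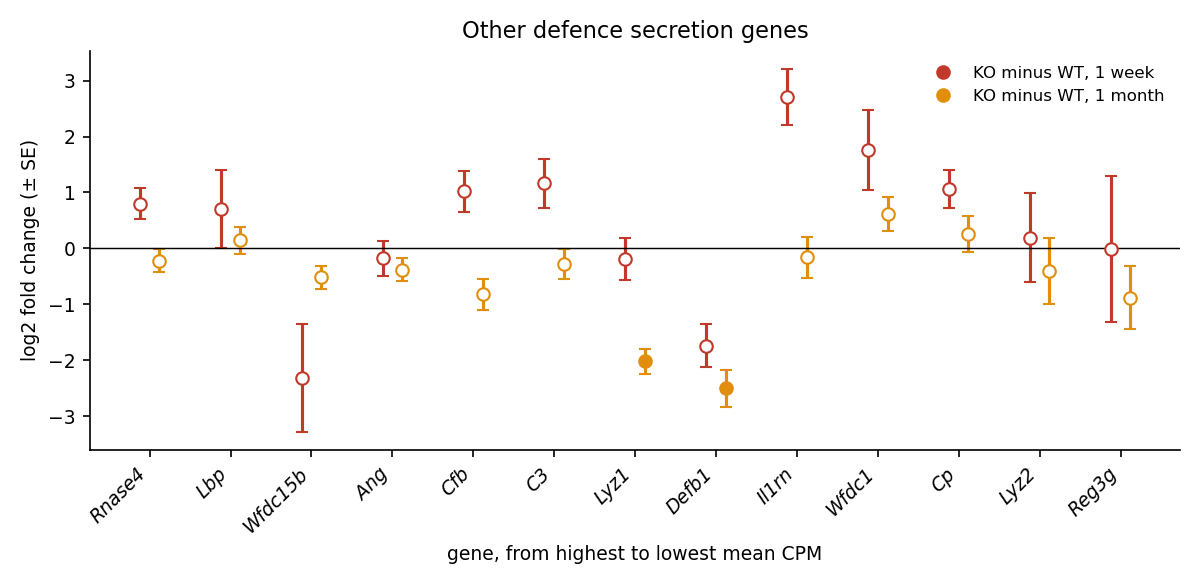
Log2 fold changes of KO minus WT with SE from edgeR at 1 week and 1 month for the 13 other secretion genes that passed the filter at both times, ordered by mean CPM. Filled points passed an adjusted p of 0.05, and these are Lyz1 and Defb1 at 1 month, both below 0.

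No gene that senses microbes or induces the secretions was called. Of 30 such genes 26 were tested at 1 week and 24 at 1 month, and 0 were called at either time, with median log2 fold changes of 0.12 and -0.08. The list includes Toll-like receptors, NF-kB subunits, receptors of interleukins 1, 6, 17 and 22, and C/EBP factors. Its most abundant genes were Ehf, an epithelial ETS factor, Nfkbia, the inhibitor of NF-kB, and Stat3. Ehf averaged 317 CPM and had a log2 difference of -0.46 ± 0.19 (SE; edgeR, adjusted p 0.184) at 1 month. Nfkbia had 0.82 (SE 0.35, adjusted p 0.202) and Stat3 0.52 (SE 0.21, adjusted p 0.181). Irf1, an interferon response factor named after its values were seen, came closest to the threshold at 1 month, at 1.08 (SE 0.27, adjusted p 0.0518), with 7.80 to 26.0 CPM in WT and 16.4 to 58.6 CPM in KO. Its groups overlapped, and within each batch KO was the higher. At an unadjusted p under 0.05, 15.5% of all genes were reached at 1 week and 21.5% at 1 month.

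Binding partners of the secreted proteins were also measured. Of 11 receptors, iron stores and immunoglobulin genes 9 are listed, 7 were tested at 1 week and 6 at 1 month, and 0 were called. The ferritin genes Ftl1 and Fth1 and the lipoprotein receptor gene Lrp1 were the most abundant. Ftl1 had 52.8 CPM in KO replicate 3 of 1 week and 2402 CPM or more in each of the other 11 libraries. In the same library Wfdc2 and Pigr were at their lowest of the series.

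Summed levels of some markers of other cells were placed as Clu was. Of 8 macrophage markers 7 are listed, and their summed CPM was 177 to 294 in WT and 335 to 648 in KO at 1 week, and 691 to 1503 in WT against 362 to 448 in KO at 1 month, so it too did not overlap between genotypes and was placed the same way as Clu at each time. At 1 month 4 of the 6 tested were called, all lower in KO: Cd74, for the invariant chain, at -1.76 (SE 0.23, edgeR adjusted p 0.00344), the complement genes C1qa at -1.95 (SE 0.31, adjusted p 0.0121) and C1qb at -1.38 (SE 0.28, adjusted p 0.0302), and Csf1r, the receptor of colony stimulating factor 1, at -1.13 (SE 0.26, adjusted p 0.0429). Of all genes tested at 1 month, 1.22% were called lower. When a library was left out, C1qa was called in 4 of 6 fits, C1qb in 2, Csf1r in 2 and Cd74 in 6. The 4 calls were lost without the batch covariate, with adjusted p between 0.242 (Cd74) and 0.426 (Csf1r), and in the fit of all 12 libraries, between 0.199 (Cd74) and 0.490 (Csf1r). At 1 week 0 were called and all 6 had positive values, with a median of 1.11. Of these, 4 did not overlap and lay higher in KO, as 13.3% of all genes did. Cd74, the most abundant of the list, was at 0.04 (SE 0.39, edgeR adjusted p 0.972) at 1 week. No macrophage marker had 0 counts in every library. The part of these cells in the result for Clu was not tested.

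Fibroblast markers summed to 3335 to 5469 CPM in WT and 4423 to 9736 in KO at 1 week, and to 9417 to 13973 in WT against 7844 to 9717 in KO at 1 month, with overlap of the sums at both times and 0 of 6 called. At 1 week, however, all 6 had positive values, as Clu did, with a median of 1.32, and 3 did not overlap between genotypes: Pdgfra at 2.93 (SE 0.68, edgeR adjusted p 0.137), Lum at 1.64 (SE 0.62, adjusted p 0.276) and Col1a1 at 1.41 (SE 0.41, adjusted p 0.182). Of all genes tested at 1 week, 13.3% did not overlap and lay higher in KO. Luminal urothelial markers summed to 10560 to 13225 CPM in WT and 8111 to 12280 in KO at 1 week, and to 14228 to 30841 in WT against 10107 to 16061 in KO at 1 month. At 1 month 11 of these 12 had negative values, as Clu did, with a median of -0.59 against -0.01 over all genes. Krt20, Krt18 and Upk3a did not overlap between genotypes there and lay lower in KO, as 6.71% of all genes did. Of the 12, only Krt20, the keratin of umbrella cells, was called, at -1.76 (SE 0.25, edgeR adjusted p 0.00601) at 1 month. That call was lost without the batch covariate (adjusted p 0.221) and in the fit of all 12 libraries (0.199). Upk1a, Upk3a and Upk2 were the most abundant of that list. Markers of male accessory glands, whose epithelium also secretes such proteins, summed to at most 0.898 CPM in any library, and 8 of the 12 listed had 0 counts throughout. The part of the luminal and fibroblast markers in the results was not tested.

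Summed markers of basal urothelium at 1 month, and of smooth muscle and endothelium at 1 week, did not overlap between genotypes. The basal sum was 3868 to 5065 CPM in WT and 3213 to 7695 in KO at 1 week, and 3000 to 4213 in WT against 4424 to 6621 in KO at 1 month, where it did not overlap and was placed as for Pigr. The smooth muscle and endothelial sum was 230 to 368 CPM in WT and 458 to 1057 in KO at 1 week, where it did not overlap and was placed as for Clu, and 151 to 967 in WT against 276 to 654 in KO at 1 month. The mean log2 CPM of that list overlapped at 1 week, at 4.36 to 5.44 in WT and 5.34 to 5.95 in KO. Of its 7 genes 3 did not overlap and lay higher in KO at 1 week, as 13.3% of all genes did. In both lists 0 genes were called at either time. Genes of these lists that did not overlap and lay higher in KO at 1 month, as Pigr did, were Krt5, Pecam1 and Kdr. They are named after their values were seen, and 6.42% of all genes were placed so. The basal keratin Krt5 was at 1.44 (SE 0.34, edgeR adjusted p 0.0505). The endothelial genes Pecam1 and Kdr were at 1.31 (SE 0.33, adjusted p 0.0620) and 1.13 (SE 0.32, adjusted p 0.0843). Of the 6 basal genes tested at 1 month 4 were higher and 2 lower. Of the 7 smooth muscle and endothelial genes 5 were higher and 2 lower. Krt15, the most abundant basal gene (3659 CPM on average), overlapped at 0.55 (SE 0.27, edgeR adjusted p 0.260). The part of these cells in the results for Pigr and Clu was not tested.

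**Figure D5:**
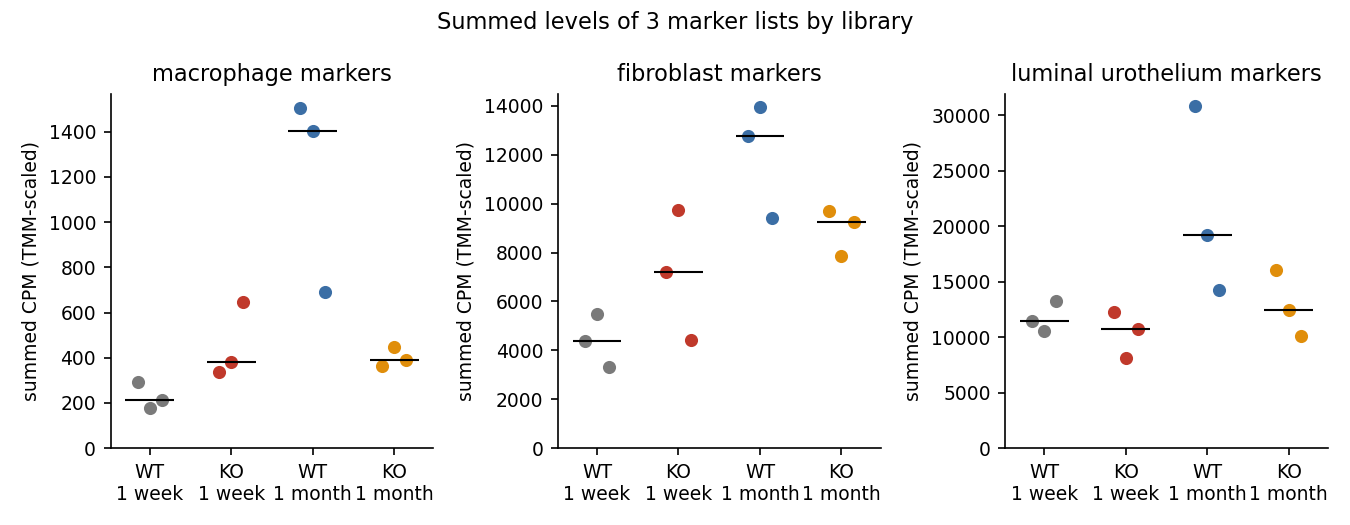
Summed CPM (TMM-scaled) of macrophage, fibroblast and luminal urothelial markers in each library by group, with the group median as a line. The macrophage sum lies above WT in KO at 1 week and below WT in KO at 1 month, while the fibroblast and luminal sums overlap between genotypes.

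The oestrogen response genes were included because lactoferrin responds to oestrogen in the uterus and tamoxifen acts on that receptor. Greb1, a target of the oestrogen receptor, had 1.48, 1.88 and 4.92 CPM in WT and 11.7, 20.4 and 9.11 CPM in KO at 1 month. No library overlapped, with a log2 difference of 2.33 ± 0.50 (SE; edgeR, adjusted p 0.0362). Of the 4 tested genes of the list 3 were higher and 1 lower. Greb1 was the 1 called, where 0.997% of all genes were called higher. The call was lost in the fit of all 12 libraries (adjusted p 0.341), without the batch covariate (0.385), without WT replicate 1 (0.143) or 2 (0.175) and without KO replicate 1 (0.0788) or 2 (0.0978). Ltf stayed at 2 counts or fewer in the same libraries. At 1 week Greb1 also did not overlap and was higher in KO, at 2.26 (SE 0.64, edgeR adjusted p 0.176). Genotype and sex cannot be told apart at that time.

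The genes whose pattern was closest to each tested member were found by the Pearson correlation of log2 CPM over the 12 libraries, after the mean of each batch was subtracted, among 13122 genes. For Clu these were Clec4a3 (0.926), Mpo (0.922), which had at most 16 counts in a library, and Trim59 (0.907). For Pigr they were Dll4 (0.983), Plekhb1 (0.948) and BC020402 (0.935). For Wfdc2 they were Crip1 (0.968), Pycard (0.943) and Ppp1ca (0.933), and for Slpi Csf2rb (0.903), Azin1 (0.903) and Plagl1 (0.896). Between members the same measure was -0.669 for Slpi and Pigr, -0.611 for Clu and Pigr, 0.537 for Slpi and Clu, 0.300 for Slpi and Wfdc2, 0.258 for Clu and Wfdc2, and 0.106 for Pigr and Wfdc2. The libraries share depth and composition, and these values describe them with no test.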

How the data were processed

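Per the labels' protocols, total RNA was made into QuantSeq 3′ (forward) libraries primed with oligo-dT, a kit for which they give HTSeq's stranded setting. The submitters' processing notes name Bowtie, TopHat, HTSeq and DESeq2 and the build mm10. Versions and gene annotation are not given in the sources used here. The deposited values are raw counts per gene symbol, in 1 table for each time, with 0 columns left unassigned.

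Groups came from the titles, and replicates were numbered in accession order. For 1 WT library of 1 month (replicate 3) the title and the library name carry different numbers, and the library name was used. P-values measure only the spread between these libraries, which may be technical, since no label states that they are separate animals. edgeR 4.0.16 (R 4.3.3, quasi-likelihood, robust, TMM, default filter on low counts) gave two-sided tests, adjusted by Benjamini-Hochberg across every gene past the filter and called at 0.05. The 2 times were fitted separately, with batch as a covariate at 1 month, and the interaction used all 12 libraries. The SE is the log2 fold change over the square root of F. log2 CPM used a prior count of 2. Steps were tested on simulated data. Alternatives included DESeq2 1.42.0, other scaling and filters, and leaving out each library. Floors of 3 counts cover counting error only.

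The members and gene lists were chosen with earlier results of these data known. Named are all 7 members, the called genes of each list, otherwise its most abundant genes, and the 3 most similar genes per member.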

Additional observations from a re-analysis of the deposited data

Results flagged for a closer look

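The genotype difference in Clu was opposite at the 2 times, with each KO library above every WT library at 1 week and each KO library below every WT library at 1 month. The difference between the effects was -2.37 on the log2 scale (SE 0.39), and the test of that difference gave an edgeR adjusted p of 0.0879. Xist exceeded 100 counts in all 3 KO libraries of 1 week and in no WT library, so genotype and sex cannot be told apart there. At 1 month only KO replicate 3 exceeded it, so genotype and sex cannot be told apart within batch 3. Time and batch cannot be told apart either.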

How the results depend on the processing

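Alternatives were other scaling, filters, dispersion settings, DESeq2, other covariates and leaving out each library. At 1 month the called members numbered 0 in the fit of all 12 libraries and 0 without the batch covariate, against 2, and between 1 and 2 when a library was left out. At 1 week DESeq2 called 1 member, and leaving out a library gave 0 throughout. In the interaction 1 member was called by DESeq2 and 1 without a filter on low counts, and between 0 and 2 when a library was left out. The cause was not tested. Clu at 1 month lay between -1.5 and -1.12 over 17 alternatives and was called in 14, and Pigr lay between 1.21 and 1.60 and was called in 13. For Wfdc2 at 1 week the log2 fold change lay between -0.46 and 0.13 when a library was left out, turning positive without KO replicate 3. In the interaction it lay between -0.47 and 0.17, turning positive without KO replicate 2 of 1 week, and was 0.00 with library size alone. Calls over all genes ranged from 0 to 957 at 1 week against 8, from 0 to 1539 at 1 month against 269, and from 0 to 917 in the interaction against 0. With library size alone the median of all genes at 1 month moved from -0.01 to 0.22 and the calls from 121 higher and 148 lower to 456 higher and 105 lower, while Clu stayed at -1.12 and Pigr at 1.60. At 1 week the split moved from 2 higher and 6 lower to 3 higher and 5 lower. No paired analysis was possible because the replicate numbers follow accession order and the labels pair no animals. Depth limits Lcn2, Saa3, Ltf and, at 1 month, Slpi.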

Other observations

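Further secretion genes, chosen after their values were seen, had genotypes that did not overlap at 1 week and did not pass the threshold over all genes in edgeR. The genotypes did not overlap for 26.6% of all genes tested at that time. Of the 15 tested genes of the secretion list, 3 were so placed with KO higher and 2 with KO lower. Il1rn, the antagonist of the interleukin 1 receptor, had 6.19, 8.95 and 7.42 CPM in WT and 25.3, 37.0 and 83.5 CPM in KO. No KO library overlapped WT, with a log2 difference of 2.71 ± 0.50 (SE; edgeR, adjusted p 0.0997), and it passed without KO replicate 3 at 2.03 (adjusted p 0.0251) and in DESeq2 (6.94e-05). At 1 month it had 6.53, 4.14 and 10.9 CPM in WT and 5.51, 6.09 and 6.68 CPM in KO. Wfdc15b, of the same WAP family as Slpi and Wfdc2, had 103, 112 and 71.7 CPM in WT and 39.5, 15.2 and 0.992 CPM in KO at 1 week, a log2 difference of -2.32 ± 0.96 (SE; edgeR, adjusted p 0.311), with the lowest value in the library that stood apart. At 1 month it had 97.2, 69.2 and 96.5 CPM in WT and 67.4, 56.7 and 57.4 CPM in KO, -0.52 (SE 0.21, adjusted p 0.187).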
